A study of Mus musculus with 2 samples.

Results

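TMPs with a high mitochondrial RNA share were cells in which over 10% and at most 30% of the raw UMIs (unique molecular identifiers, 1 per captured RNA molecule) lay on the 13 mitochondrially encoded mRNAs. TMPs are tumor mononuclear phagocytes, and a cell entered the count if it had 200 to 7000 detected genes. 353 of 14361 such cells met the rule, which is 2.46% (95% exact Clopper-Pearson interval 2.21 to 2.72). They are called mt-high TMPs here, and the 13998 cells at 10% or less, mt-low TMPs, are the reference. The cells were chosen by their measured mitochondrial share, so the share is given as a description only, and the account rests on the other genes.

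The cells were MerTk+ CD64+ phagocytes sorted by FACS from enzymatically dissociated B16 tumors, which are transplants of a mouse melanoma cell line, and were profiled on the 10X Chromium platform, which counts the 3′ ends of polyadenylated RNA. The study asked how loss of Fcmr, a receptor for the Fc part of IgM, alters these cells. There were 2 libraries, 1 from C57Bl/6 mice with both Fcmr alleles (Fcmr+/+) and 1 from C57Bl/6 mice lacking Fcmr (Fcmr-/-), with no treatment named and tumors of 500 to 1000 mm3 in each. The sources used here give neither the age of the mice nor how many were pooled, so each library was 1 sample. No test between the genotypes was possible, and the libraries are given side by side. A test of mt-high against mt-low TMPs was not made. The deletion was present in every cell of the Fcmr-/- mice, so the TMPs came from tumors in which other host cells lacked Fcmr too. Fcmr itself was too rare to check the labels, with 4 UMIs in 1 mt-high and 3 UMIs in 3 mt-low TMPs of Fcmr+/+, and 0 UMIs in mt-high and 6 UMIs in 6 mt-low TMPs of Fcmr-/-. The deposited Fcmr+/+ library held 131062107 UMIs over 6392 cells, and the Fcmr-/- library 125802196 over 8017. 73 barcodes occurred in both libraries, among them those of 2 Fcmr+/+ and 3 Fcmr-/- mt-high TMPs, and no barcode was mt-high in both.

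Mitochondria keep a small circular genome that encodes subunits of respiratory complexes I, III and IV and of ATP synthase, while the remaining subunits are encoded in the nucleus, made in the cytosol and imported. Mitochondrial mRNAs are polyadenylated inside the organelle and therefore appear in 3′ RNA libraries. In single-cell work a high mitochondrial share is commonly read as a sign that a cell lost cytosolic RNA or was dying, but it also differs between healthy cell types with different mitochondrial content, and the share by itself does not tell these apart.

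The mitochondrial genes are packed so closely that some overlap, which sets a limit on counting them one by one. In GENCODE M21 on GRCm38, mt-Atp8 (chrM:7766-7969) and mt-Atp6 (chrM:7927-8607), subunits of ATP synthase, share 43 bases, and mt-Nd4l and mt-Nd4, subunits of complex I, share 7 bases. Both stretches are on the + strand and are shown because a read inside them belongs to either gene. Capitals mark the start codon of the downstream gene and the stop codon of the upstream gene.
mt-Atp8 and mt-Atp6, chrM:7927-7969: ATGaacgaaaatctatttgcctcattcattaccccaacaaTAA
mt-Nd4l and mt-Nd4, chrM:10167-10173: ATGcTAA
The upstream partner of each pair was counted rarely. In mt-high TMPs mt-Atp8 held 0.0747% of the mitochondrial UMIs in Fcmr+/+ and 0.112% in Fcmr-/-, against 19.8% and 21.5% for mt-Atp6. For mt-Nd4l the shares were 0.256% and 0.345%, and for mt-Nd4 they were 5.55% and 5.37%. These are shares of UMIs and are not corrected for transcript length. The platform counts 3′ ends, so within a pair they do not measure how much RNA of each gene was present.

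Both mitochondrial UMIs and other UMIs enter the share that chose the cells, so their counts per cell are a description of what the rule selected. The Fcmr+/+ library held 172 of them among 6359 cells (2.70%, 2.32 to 3.13) and the Fcmr-/- library 181 among 8002 (2.26%, 1.95 to 2.61), so the intervals overlapped. The median mitochondrial count per cell was 1606 UMIs against 868 in mt-low TMPs of Fcmr+/+, and 1138 against 550 in Fcmr-/-. The median count on all other genes was 9407.5 against 17297.5 UMIs in Fcmr+/+, and 7523 against 12499.5 in Fcmr-/-. Relative to mt-low TMPs the mitochondrial UMIs were thus 1.85 and 2.07 times as many, and the other UMIs 0.544 and 0.602 times as many. Fewer genes were detected, with a median of 2979 against 3773 in Fcmr+/+ and 2572 against 3181 in Fcmr-/-. No deposited cell had fewer than 6152 UMIs in Fcmr+/+ or 5156 in Fcmr-/-, so shallower cells were not seen.

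The mitochondrial share ran on without a gap across the threshold. The Fcmr+/+ cells nearest to the limit had 10.1% inside and 9.99% outside, and the Fcmr-/- cells 10.0% and 10.0%, at 904 of 9034 UMIs inside and 636 of 6362 outside. Between 9% and 10% there were 70 and 94 cells, and between 10% and 11% there were 47 and 50. Among mt-high TMPs of Fcmr+/+, 72 lay at 10 to 12%, 53 at 12 to 15%, 23 at 15 to 20% and 24 at 20 to 30%. In Fcmr-/- the same ranges held 79, 65, 29 and 8 cells. Across these ranges the median of other UMIs was lower at each step, from 12855.5 to 5703.5 in Fcmr+/+ and from 9414 to 5326 in Fcmr-/-. The median of mitochondrial UMIs stayed between 1476 and 1871.5 in Fcmr+/+ and between 1049 and 1505.5 in Fcmr-/-. Below the threshold the pattern was different, since both counts were higher from one range to the next up to 4 to 6%, where other UMIs peaked at a median of 20005 and 15672.5.

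**Figure D1:**
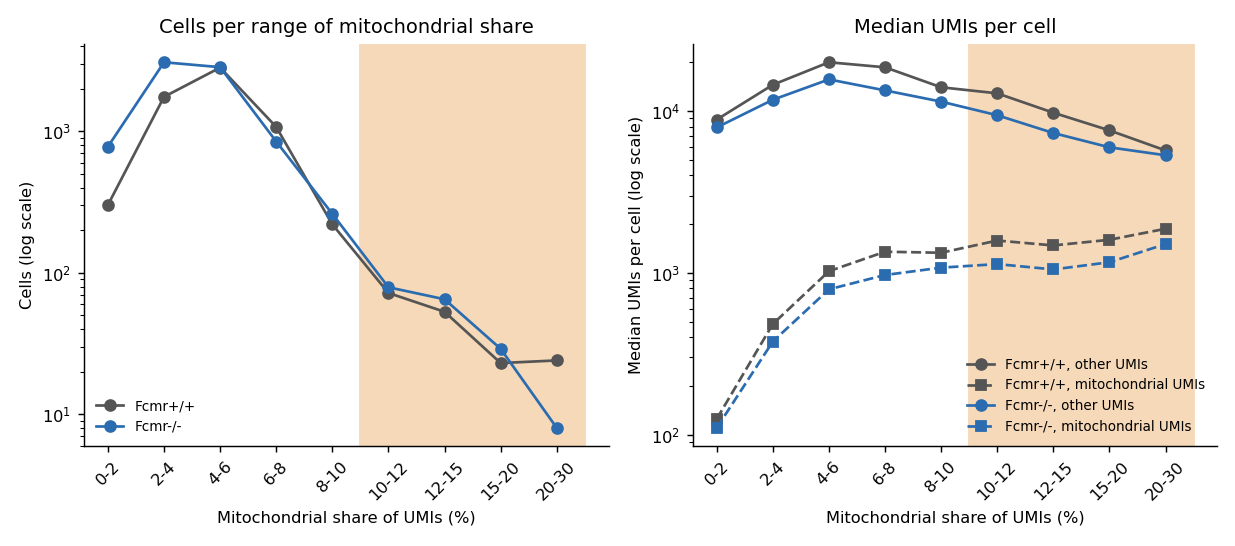
Left, number of cells (log axis) in each range of the mitochondrial share of UMIs (%), by library. Right, median UMIs per cell (log axis) on mitochondrial genes (dashed) and on all other genes (solid). The shaded ranges are the mt-high TMPs, in which other UMIs drop from 12855.5 to 5703.5 (Fcmr+/+) and from 9414 to 5326 (Fcmr-/-) while mitochondrial UMIs stay above 1000.

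All 13 mitochondrial mRNAs were more abundant per cell in mt-high TMPs, by 1.43 to 1.90 times in Fcmr+/+ and 1.40 to 2.07 times in Fcmr-/-, and it was their sum that the rule used. The split between them was not used by the rule. mt-Co1, the catalytic subunit of complex IV, held a smaller part of the mitochondrial UMIs in mt-high than in mt-low TMPs, at 16.2% against 18.4% in Fcmr+/+ and 15.8% against 18.9% in Fcmr-/-. mt-Atp6, a subunit of the proton channel of ATP synthase, held a larger part, at 19.8% against 18.8% and 21.5% against 19.5%. mt-Cytb, the mitochondrially encoded subunit of complex III, also held a larger part, at 8.21% against 7.63% and 8.23% against 7.56%. mt-Co3, a second subunit of complex IV, took 21.4% in mt-high TMPs of each library, against 20.8% and 21.1% in mt-low TMPs. The binomial intervals of these 4 genes did not overlap between mt-high and mt-low TMPs in either library, but they cover counting error only. mt-Nd6, the only one of the 13 on the opposite strand, was rare, with 90 and 83 UMIs.

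The mt-high TMPs carried the markers of the sort and of macrophages. Here and below, a level is CPM, the UMIs of a gene per 1e+06 UMIs summed across the cells of a group, with mitochondrial UMIs left out of the total, and brackets hold 95% exact Poisson intervals. Mertk, the efferocytosis receptor used in the sort, was at 115 CPM (101 to 132) in mt-high against 65.4 in mt-low TMPs of Fcmr+/+, and at 84.7 (71.2 to 100.1) against 50.6 in Fcmr-/-. Fcgr1, which encodes CD64, was at 233 against 264 CPM in Fcmr+/+ and at 414 against 413 in Fcmr-/-. Adgre1, which encodes F4/80, was at 556 against 318 CPM and 554 against 373. Itgam, which encodes CD11b, differed little, at 305 against 262 CPM and 359.7 against 324. All 10 macrophage markers were present at 50 CPM or more in each library. Their summed level was 24127 CPM in mt-high against 18006 in mt-low TMPs of Fcmr+/+ and 22569 against 15773 in Fcmr-/-, with Apoe the most abundant at 10363 and 8190.2 CPM. The mt-high TMPs thus carried macrophage markers, but Mertk and Fcgr1 are on that list and encode the proteins of the sort. Their presence was therefore partly set by the sort.

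For the comparison of mt-high with mt-low TMPs within a library, a gene was called higher or lower when its CPM + 1 differed 1.5-fold or more and its CPM reached 50 in either group. Of 3245 genes at that level in Fcmr+/+, 308 (9.49%) were higher and 46 (1.42%) lower in mt-high TMPs. Of 3144 genes in Fcmr-/-, 187 (5.95%) were higher and 35 (1.11%) lower. Among the 2979 genes at that level in both libraries, 98 (3.29%) were higher and 9 (0.302%) lower in each. A gene could enter through either group, and 50 of the 98 were under 50 CPM in mt-low TMPs of at least 1 library, so that only mt-high TMPs carried them past the limit, as 3 of the 9 were under it in mt-high TMPs. The other 48 and 6 were at 50 CPM or more in both groups of both libraries. With the limit set on the mean of both groups, an alternative chosen after seeing the data, 69 genes were higher and 7 lower. No gene was called in opposite directions. Log2 ratios had the same sign in both libraries for 1489 genes above 0 and 1016 below 0, and opposite signs for 474. Across genes, which are not independent replicates, the ratios of the 2 libraries had a Pearson r of 0.80, and the libraries share no reference cells. The median log2 ratio of all genes tested was 0.11 in Fcmr+/+ and 0.08 in Fcmr-/-.

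The balance of higher and lower calls depended on the scale. With CPM over all UMIs, mitochondrial ones included, the medians of all genes were -0.05 and -0.07, and 25 genes were higher and 35 lower in both libraries. With each library's ratios centred on their median the counts were 41 and 23, and with ribosomal protein UMIs also left out of the total they were 75 and 20. Against mt-low TMPs weighted to the same distribution of other UMIs per cell, 142 genes were higher and 41 lower.

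**Figure D2:**
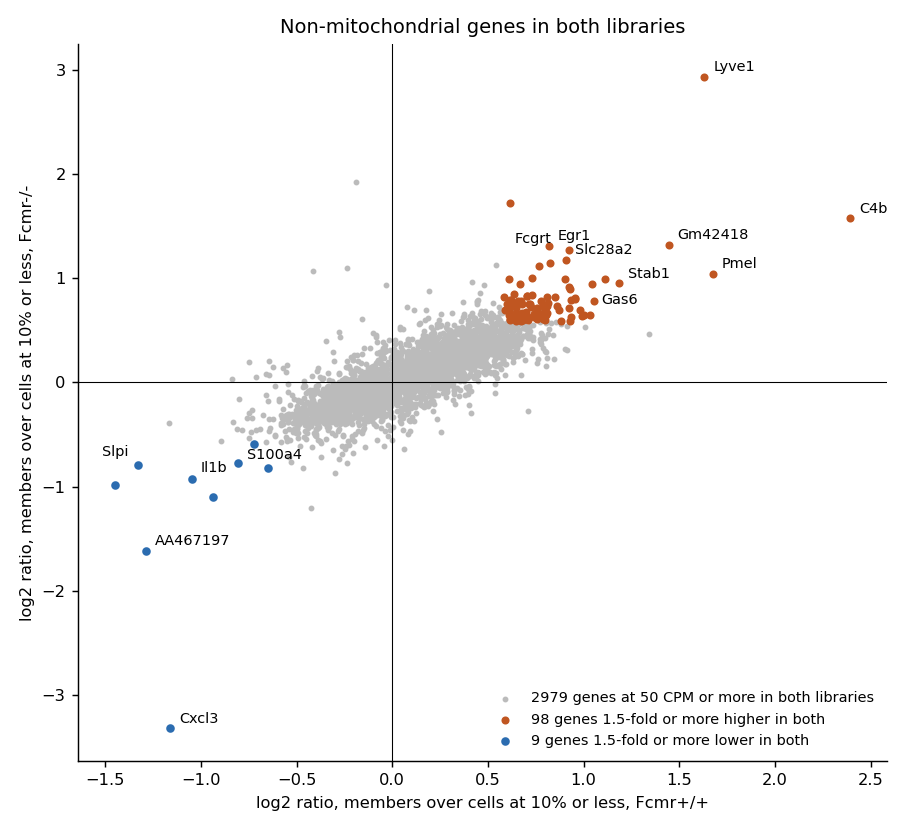
Log2 ratio of CPM + 1 in mt-high over mt-low TMPs for each of 2979 non-mitochondrial genes, with Fcmr+/+ on the x axis and Fcmr-/- on the y axis. The 98 genes higher in both (orange) reach 2.39 in Fcmr+/+ (C4b) and 2.94 in Fcmr-/- (Lyve1), and the 9 genes lower in both (blue) reach -3.32 in Fcmr-/- (Cxcl3).

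Stab1, Gas6 and Fcgrt were among the 12 genes with the highest ratios, with Mrc1 and Ccl8 further down. Stab1, a scavenger receptor for modified lipoproteins and apoptotic cells, was at 821 CPM (781 to 863) in mt-high against 361 in mt-low TMPs of Fcmr+/+, and at 683 (644 to 725) against 353 in Fcmr-/-, log2 ratios of 1.18 and 0.95. It had a UMI in 162 of 172 and 148 of 181 mt-high TMPs. Gas6, the bridging ligand through which Mertk recognises apoptotic cells, was at 563 against 273 CPM and 288 against 149. Fcgrt, the neonatal Fc receptor that recycles IgG, was at 181 CPM in mt-high TMPs of each library, against 95.1 and 74.5. These 3 genes were named from those 1.5-fold or more higher in both libraries, so their direction in both genotypes is no separate result. Mrc1, the mannose receptor, was at 1632 against 944 CPM and 1026 against 652. Ccl8, a chemokine of resident macrophages, was at 1264 against 651 CPM and 2497 against 1435, although 1 cell gave 231 of the 2421 UMIs in Fcmr+/+ and 1 gave 302 of 4068 in Fcmr-/-.

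The 2 largest log2 ratios among the 98 genes belonged to genes seen in few cells. Lyve1, a hyaluronan receptor of perivascular macrophages, was at 82.0 CPM (69.6 to 95.8) against 25.8 in Fcmr+/+ and at 138 (120.1 to 157) against 17.1 in Fcmr-/-. Only 29 and 22 mt-high TMPs had a Lyve1 UMI, and 1 cell held 59 of the 224 UMIs in Fcmr-/-. C4b, complement component 4, was at 64.2 CPM against 11.4 and 63.8 against 20.7, from 30 and 51 cells. After every cell was thinned to 4000 non-mitochondrial UMIs, which left out 1 Fcmr-/- mt-high TMP, Lyve1 was detected in 10.5% of mt-high against 3.66% of mt-low TMPs in Fcmr+/+ and in 10.6% against 2.15% in Fcmr-/-. The unthinned shares were 16.9% against 9.24% and 12.2% against 4.63%. Thinned, Stab1 was detected in 82.0% against 56.8% and 70.6% against 56.1%, and unthinned in 94.2% against 83.5% and 81.8% against 79.1%. The share that free RNA alone gives was not measured, so these shares are not corrected for it.

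The remaining genes of the 12 highest were Gm42418, Pmel, Slc12a7, Gpr137b-ps, Slc28a2, Gdap10 and Numa1. Gm42418, a noncoding annotation on chr17:39846958-39848788 that lies over a ribosomal RNA repeat, was at 4478 against 1646 CPM in Fcmr+/+ and 3815 against 1523 in Fcmr-/-. Its count may hold ribosomal RNA fragments, so it is uncertain as a gene, and 1 cell gave 1081 of the 8578 UMIs in Fcmr+/+. Slc12a7, a potassium chloride cotransporter, was at 67.9 against 30.9 CPM and 59.5 against 29.5. Slc28a2, a nucleoside transporter, was at 50.1 against 26.2 CPM and 81.6 against 35.5. Numa1, a nuclear matrix and spindle protein, was at 60.6 against 31.3 CPM and 57.7 against 30.4. Gpr137b-ps, annotated as a pseudogene of Gpr137b, shares sequence with its parent and is uncertain, with log2 ratios of 0.92 in both libraries. Gdap10 had log2 ratios of 0.90 and 0.99. Of the 12, Lyve1, C4b, Pmel, Slc12a7, Gpr137b-ps, Slc28a2, Gdap10 and Numa1 reached 50 CPM in mt-high TMPs only.

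Other genes among the 98 were picked after their values were seen. Pltp, a phospholipid transfer protein, was at 321 against 181 CPM in Fcmr+/+ and 286 against 129 in Fcmr-/-. Vcam1, an adhesion molecule of resident macrophages, was at 168 against 101 CPM and 222 against 110.2. Folr2, a folate receptor of resident macrophages, was at 397 against 253 CPM and 282 against 171. The lysosomal genes Man2b1, a mannosidase, and Clcn7, a chloride transporter, had log2 ratios of 0.72 and 0.93 in Fcmr+/+ and of 0.75 and 0.72 in Fcmr-/-. Ltc4s, leukotriene C4 synthase, was at 61.1 against 39.5 CPM in Fcmr+/+ and 78.6 against 23.0 in Fcmr-/-. It reached 50 CPM in mt-high TMPs only, so it could be called in 1 direction alone.

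The 9 genes lower in both libraries included a cytokine and a chemokine. Il1b, an inflammatory cytokine, was at 844 CPM (804 to 886) in mt-high against 1746 in mt-low TMPs of Fcmr+/+, and at 1082 (1032 to 1134) against 2059 in Fcmr-/-. Cxcl3, a neutrophil chemokine, was at 51.7 against 117 CPM in Fcmr+/+ and 22.7 against 236 in Fcmr-/-. In Fcmr+/+ 1 cell gave 35 of the 99 Cxcl3 UMIs. Both genes were lower in both genotypes by the rule that listed them. For Cxcl3 the log2 ratio was -1.16 in Fcmr+/+ and -3.32 in Fcmr-/-. S100a4, a calcium-binding protein of recruited monocytes and macrophages, was at 646 against 1132 CPM and 525 against 895. Fn1, fibronectin, was at 368 against 578 CPM and 293 against 519, with 102 of the 704 UMIs of Fcmr+/+ in 1 cell. Prdx6, a peroxide-reducing enzyme, was at 145 against 240.0 CPM and 188 against 285.

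Another 3 of the 9 lower genes were Rgcc, Slpi and AA467197. Rgcc, a regulator of the cell cycle, was at 71.0 against 137 CPM and 65.7 against 142. Slpi, an inhibitor of leukocyte proteases, was at 24.0 against 61.9 CPM and 43.0 against 75.4. AA467197, the mouse gene related to human NMES1, was at 29.8 against 74.1 CPM in Fcmr+/+ and 23.9 against 75.5 in Fcmr-/-, with UMIs in 14 and 22 mt-high TMPs. Spp1, osteopontin, was lower by the rule in Fcmr-/- only, at 2303 against 5299 CPM, and stood at 2139.9 against 2874 in Fcmr+/+. The difference between genotypes was not tested. With the mt-low TMPs weighted to the depth of the mt-high TMPs, all 9 genes kept a negative log2 ratio in both libraries, from -1.02 for Prdx6 in Fcmr+/+ to -3.95 for Cxcl3 in Fcmr-/-. Weighted to their distribution over clusters, the range was -0.25 for Slpi to -2.50 for Cxcl3, both in Fcmr-/-.

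These levels also differed below the 10% limit, from one range of the mitochondrial share to the next. In Fcmr+/+ Stab1 was at 95.8 CPM in cells at 2% or less, 393 at 4 to 6%, 682 at 10 to 15% and 1451 at 15 to 30%. In Fcmr-/- the same ranges gave 117, 419.6, 632 and 997 CPM. Mrc1 and Gas6 were likewise highest at 15 to 30%, at 2261 and 740.2 CPM in Fcmr+/+ and at 1427 and 408 in Fcmr-/-. Cxcl3 ran the other way, from 214 CPM at 2% or less to 50.3 at 10 to 15% in Fcmr+/+ and from 703 to 22.8 in Fcmr-/-, and stood at 57.8 and 22.0 at 15 to 30%, from 20 and 5 UMIs. S100a4 was lowest at 15 to 30%, at 509 and 312 CPM. Il1b was at 589.8 CPM at 15 to 30% in Fcmr+/+ but at 1471 in Fcmr-/-, above the 1019 at 10 to 15% there. Lyve1 at 15 to 30% was at 109.9 CPM in Fcmr+/+ and at 13.2 in Fcmr-/-, the latter from 3 UMIs (interval 2.72 to 38.5). At 10 to 15% Lyve1 was at 75.8 CPM in Fcmr+/+, below the 102 (91.5 to 114) of mt-low TMPs at 8 to 10%. In Fcmr-/- it was at 158 CPM at 10 to 15% against 57.6 at 8 to 10%. A high Lyve1 level was thus not particular to mt-high TMPs in Fcmr+/+. Among ranges up to 30% the 47 and 37 mt-high TMPs over 15% thus had the highest Stab1 level, but in Fcmr-/- not the highest Lyve1 level.

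**Figure D3:**
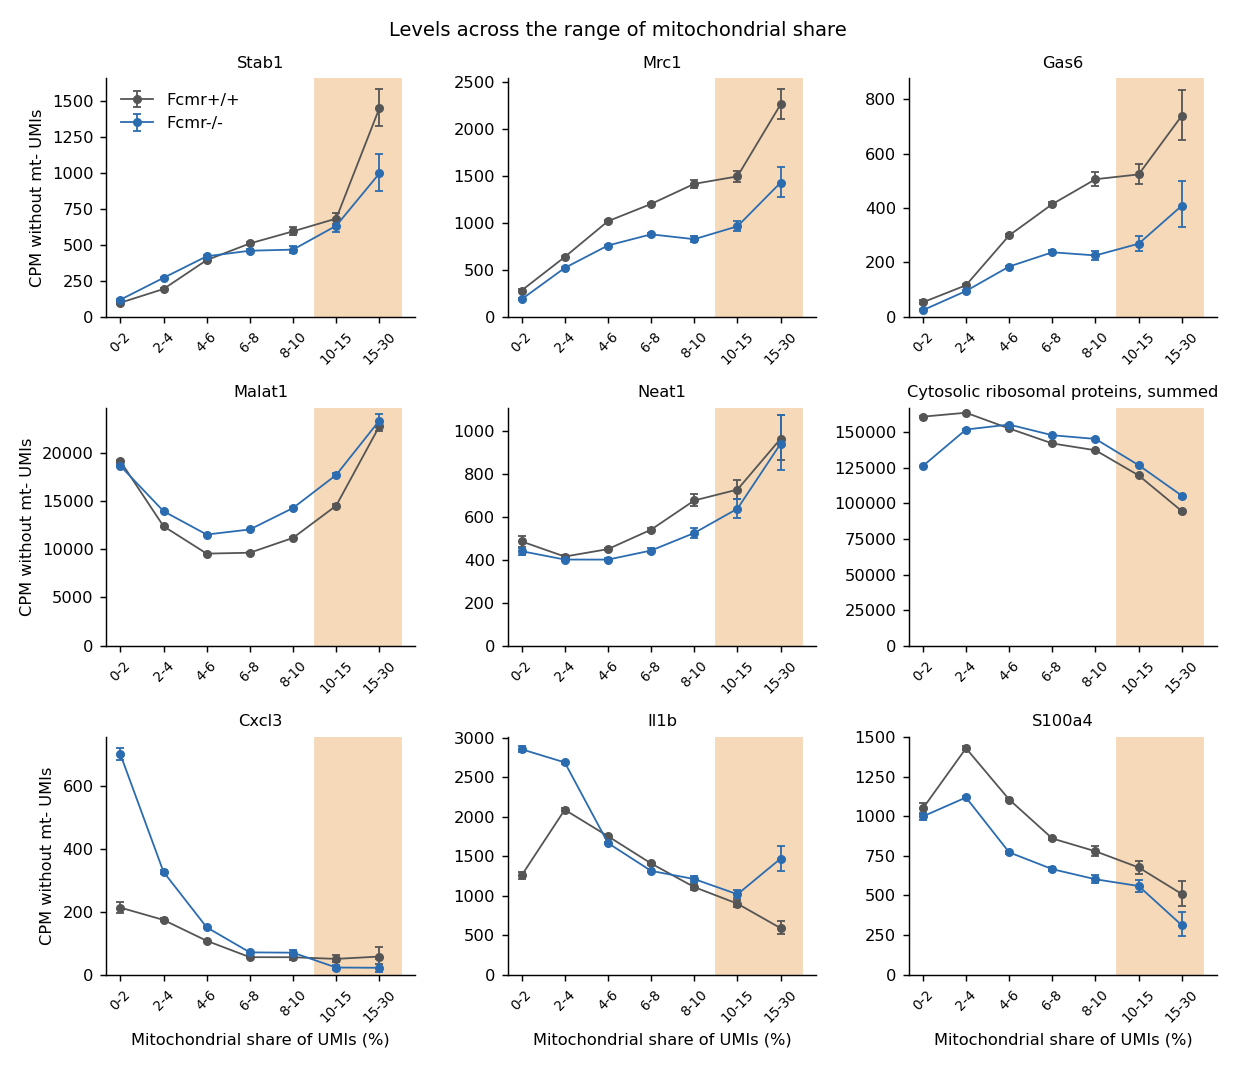
CPM without mitochondrial UMIs (y axis) in ranges of the mitochondrial share (x axis, %) for 8 genes and for the summed cytosolic ribosomal proteins, by library, with 95% exact Poisson intervals that cover counting error only. In the shaded mt-high ranges Stab1 reaches 1451 and 997 CPM and the ribosomal proteins drop to 94610 and 105458 CPM, while Malat1 is high at both ends of the range.

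Malat1 and Neat1, RNAs retained in the nucleus, had log2 ratios above 0 in mt-high TMPs of both libraries, and the cytosolic ribosomal protein genes had ratios below 0. Malat1, an abundant nuclear noncoding RNA (chr19:5795690-5802672), was at 16002 CPM (15824 to 16182) in mt-high against 10575 in mt-low TMPs of Fcmr+/+ and at 18491 (18283 to 18701) against 12958 in Fcmr-/-. Neat1, the scaffold of paraspeckles (chr19:5824708-5845478), was at 769 against 464 CPM and 679.6 against 411. Kcnq1ot1, an imprinted antisense RNA, was at 60.04 against 37.4 CPM and 62.6 against 39.2. Of the 16 nuclear noncoding RNAs listed, 7 were in the files and these 3 reached 50 CPM, Kcnq1ot1 in mt-high TMPs only. In Fcmr+/+ 3 were called higher and in Fcmr-/- 2, beside 9.49% and 5.95% of all genes, and Malat1 in Fcmr-/- stood at a log2 ratio of 0.51. Xist, which coats the inactive X chromosome and was not on the list, was at 1856 against 957 CPM and 1681 against 959.6, and was taken up after its value was seen. Among ranges up to 30% Malat1 was highest at 15 to 30%, at 22754 CPM in Fcmr+/+ and 23338 in Fcmr-/-. It was not high in mt-high TMPs alone, since cells at 2% or less had 19139 and 18645 CPM. These were above the 14514.5 and 17703 at 10 to 15%, and at 4 to 6% the levels were 9541 and 11521. Both ends of the range held cells with few UMIs. Weighted to the depth of the mt-high TMPs, the log2 ratio of Malat1 was 0.26 in Fcmr+/+ and 0.17 in Fcmr-/- in place of 0.60 and 0.51, and that of Neat1 was 0.51 and 0.52 in place of 0.73 and 0.72. The part of depth in these ratios was not tested further.

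All 79 cytosolic ribosomal protein genes had a log2 ratio below 0 in each library, with medians of -0.43 in Fcmr+/+ and -0.31 in Fcmr-/- beside 0.11 and 0.08 over all genes. In Fcmr+/+ 3 of the 79 were called lower (Rpl15 and Rps7 among them) and in Fcmr-/- 0, beside 1.42% and 1.11% of all genes. Their summed level was 115195 CPM in mt-high against 153428 in mt-low TMPs of Fcmr+/+ and 123933 against 151394 in Fcmr-/-. Within mt-high TMPs it was 119732 and 126936 CPM at 10 to 15% and 94610 and 105458 at 15 to 30%. In mt-low TMPs at 2% or less it was 161059 CPM in Fcmr+/+ but 126319 in Fcmr-/-. A low level was thus not particular to mt-high TMPs in Fcmr-/-. Weighted to depth the medians were -0.45 and -0.22.

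A pair of lists held abundant macrophage mRNAs. Of 50 mRNAs for secreted, lysosomal and membrane proteins, which are translated at the endoplasmic reticulum, 37 had a log2 ratio above 0 in Fcmr+/+ and 40 in Fcmr-/-, with medians of 0.32 and 0.26, and the other 13 and 10 were below 0. In Fcmr+/+ 5 of the 50 were called higher and 2 lower, and in Fcmr-/- 7 and 4, beside the 9.49% and 5.95% higher and 1.42% and 1.11% lower of all genes. C1qa, Ccl8, Mrc1, Sepp1 and Cd81 were called higher in both libraries and Fn1 lower in both. C1qa, a chain of complement C1q, was at 3547 against 2361 CPM and 3834 against 2361. Sepp1, selenoprotein P, was at 2298 against 1485 CPM and 1537 against 920.0. Of 50 mRNAs for cytosolic proteins, 49 reached 50 CPM, and 41 of these were below 0 in Fcmr+/+ and 38 in Fcmr-/-, with medians of -0.25 and -0.17. In each library 2 were called lower and 0 higher, and S100a4 was the one called lower in both. Fth1, the heavy chain of ferritin and the most abundant of them, was at 22088 against 28096 CPM and 20029 against 26387. Weighted to depth these medians were 0.31 and 0.28 for the first class and -0.23 and -0.12 for the second.

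**Figure D4:**
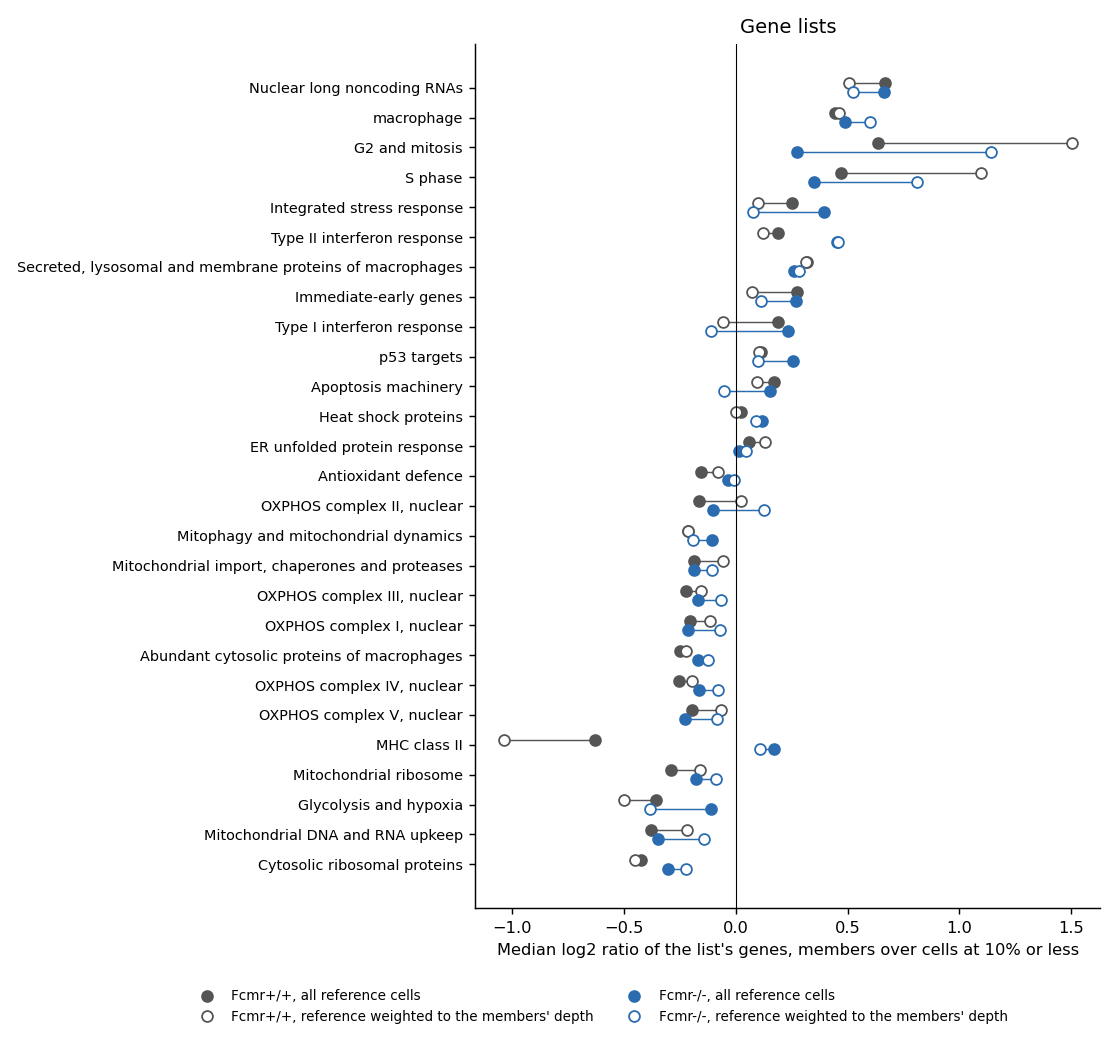
Median log2 ratio (x axis) of the genes of each list that reached 50 CPM, mt-high over mt-low TMPs, by library. Filled points use all mt-low TMPs and open points use mt-low TMPs weighted to the depth of the mt-high TMPs, with nuclear noncoding RNAs at 0.67 and 0.66 (filled) and cytosolic ribosomal proteins at -0.43 and -0.31.

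None of the 76 nuclear genes of complexes I to V at 50 CPM (36, 4, 9, 10 and 17 by complex) was called in either library, where 9.49% and 5.95% of all genes were called higher and 1.42% and 1.11% lower. Their medians lay between -0.26 and -0.10 across complexes and libraries, beside 0.11 and 0.08 over all genes. Weighted to depth the medians of complex I were -0.12 and -0.07, and those of complex II turned to 0.02 and 0.12. All genes of complexes III, IV and V were below 0 in both libraries. Cox4i1, a core nuclear subunit of complex IV, was at 956 against 1067 CPM in Fcmr+/+ and 933 against 974 in Fcmr-/-. Cox7b, the most lowered of that complex, was at 281 against 384 CPM and 294 against 413. Sdha, the catalytic subunit of complex II, was the one most above 0, at 150.4 against 116 CPM and 144 against 118. Summed over complexes, these mRNAs were at 21699 and 22274 CPM at 10 to 15% and at 17460 and 18398 at 15 to 30%. They were not low in mt-high TMPs alone, since mt-low TMPs at 2% or less had 21147.5 and 21741 CPM, below the 10 to 15% levels. At 4 to 6% the sums were 25095 and 25732 CPM.

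Other mitochondrial lists also had medians below 0. Of 45 mitochondrial ribosome genes at 50 CPM in Fcmr+/+, 44 were below 0 and 2 were called lower, and of 41 in Fcmr-/-, 37 were below 0 and 0 were called, with medians of -0.29 and -0.18. Of these, 12 and 5 reached 50 CPM in mt-low TMPs only, and of the other 33 and 36 genes 32 in each library were below 0. Of all genes 1.42% and 1.11% were called lower. Import factors, chaperones and proteases had a median of -0.19 in each library, and 1 of 13 was called lower in Fcmr+/+ and 0 of 14 in Fcmr-/-. The 4 genes of mitochondrial DNA and RNA upkeep at 50 CPM, Rexo2, Slirp, Ssbp1 and Hsd17b10, were all below 0, with medians of -0.38 and -0.35, but 2 of them reached 50 CPM in mt-low TMPs only, among them Hsd17b10, the 1 called lower in Fcmr+/+. Mitophagy and dynamics genes had medians of -0.22 and -0.11, and Bnip3, a mitophagy receptor induced by hypoxia, was called lower in Fcmr+/+ only, at 123 against 221 CPM beside 214 against 209 in Fcmr-/-.

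Of 12 apoptosis genes at 50 CPM, 0 were called in either library, with medians of 0.17 and 0.15, which were 0.09 and -0.05 when weighted to depth. Mcl1, a survival factor, was at 936 against 770.5 CPM and 777 against 669. Cycs, cytochrome c, was at 180.1 against 236 CPM and 220.4 against 278. In the integrated stress response list, 8 of 9 genes were above 0 in each library, with medians of 0.25 and 0.40, which were 0.10 and 0.08 when weighted to depth. The 1 of these 9 called higher in each library, where 9.49% and 5.95% of all genes were, was Gdf15, a secreted stress cytokine, at 843 (802 to 885) against 405 CPM in Fcmr+/+ and 404 (374 to 436) against 235 in Fcmr-/-. Among p53 targets Plk2 was called higher in both, at 340.4 against 197 CPM and 196 against 128, while Cdkn1a, the p21 cell cycle inhibitor, had log2 ratios of -0.26 and -0.52. Of 22 immediate-early genes, which respond within minutes to stimuli such as tissue dissociation, 2 were called higher in each library, beside the same 9.49% and 5.95% of all genes, and Egr1 in both, at 371 against 209.6 CPM and 187 against 74.7. The immediate-early medians were 0.27 in each library and 0.07 and 0.11 when weighted to depth. Of 10 heat shock genes 5 were above 0 in Fcmr+/+ and 8 in Fcmr-/-, with medians of 0.02 and 0.12, and 1 and 2 were called higher, the 1 of Fcmr+/+ having reached 50 CPM in mt-high TMPs only. Hspa1a, an inducible heat shock chaperone, was at 205 against 273 CPM in Fcmr+/+ and 593 against 282 in Fcmr-/-, where 1 cell gave 117 of 966 UMIs. Unfolded protein response and antioxidant lists had medians between -0.16 and 0.06.

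Among cell cycle genes Top2a, a topoisomerase of dividing cells, was called higher in both libraries, at 118 against 68.4 CPM in Fcmr+/+ and 129.5 against 74.7 in Fcmr-/-. Mcm2, a replication helicase subunit, was at 50.1 against 31.4 and 52.2 against 30.2 and reached 50 CPM in mt-high TMPs only. The median log2 ratio of G2 and mitosis genes was 0.64 in Fcmr+/+ (8 genes, 5 called higher, of which 2 reached 50 CPM in mt-high TMPs only) and 0.27 in Fcmr-/- (5 genes, 1 called higher and 2 below 0), where 9.49% and 5.95% of all genes were called higher. Of 8 and 6 S phase genes at 50 CPM, 4 and 3 reached it in mt-high TMPs only, among them the 2 called higher in each library, so their direction was set by the limit. The other 4 and 3 were above 0, and 0 of them were called. Weighted to depth the G2 and mitosis medians were 1.504 and 1.14. Cells in cycle had more UMIs, as the cluster of cycling cells shows below. Top2a UMIs came from 47 of 172 and 43 of 181 mt-high TMPs. In Fcmr-/- Top2a was at 99.2 CPM at 10 to 15%, not above the 111 of mt-low TMPs at 8 to 10%. It was at 316 CPM in the 37 Fcmr-/- cells at 15 to 30%, from 72 UMIs. In Fcmr+/+ these ranges gave 102, 68.1 and 191 CPM. The summed G2 and mitosis level at 10 to 15% was 776 CPM in Fcmr-/-, below the 976 at 8 to 10%. In Fcmr+/+ it was 1184 against 768.

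The MHC class II genes present antigen to helper T cells. All 6 MHC class II genes at 50 CPM were below 0 in Fcmr+/+, where 4 were called lower, and above 0 in Fcmr-/-, where 0 were called, with medians of -0.63 and 0.17. Of all genes 1.42% and 1.11% were called lower and 9.49% and 5.95% higher. Cd74, the invariant chain, was at 1557 (1501 to 1614) against 2429 CPM in Fcmr+/+ and at 3999 (3903 to 4098) against 3459 in Fcmr-/-. With mt-low TMPs weighted over clusters the medians were -0.45 and -0.09, so the sign in Fcmr-/- turned. Weighted to depth they were -1.04 and 0.11. The difference was not tested. Of the type II interferon response genes at 50 CPM, 5 of 8 were above 0 in Fcmr+/+, with 1 called higher and a median of 0.19, and 14 of 15 in Fcmr-/-, with 3 called higher and a median of 0.45. Of these, 1 and 4 reached 50 CPM in mt-high TMPs only, so their direction was set by the limit, among them the 1 called in Fcmr+/+ and 1 of the 3 called in Fcmr-/-. Gbp7, a guanylate-binding protein, was at 53.3 against 34.4 CPM and 158 against 91.2, and is that gene of Fcmr+/+. Cxcl9, a chemokine induced by interferon gamma, was at 426 against 191 CPM in Fcmr-/-, with 119 of 694 UMIs in 1 cell, and at 6.26 against 15.4 in Fcmr+/+. Type I interferon response genes had medians of 0.19 and 0.23, which turned to -0.06 and -0.11 when weighted to depth. Of 15 such genes at 50 CPM in Fcmr+/+ 2 were called lower and 0 higher, and of 22 in Fcmr-/- 0 were called. Of the 2 lower genes, 1 reached 50 CPM in mt-low TMPs only. Glycolysis and hypoxia genes had medians of -0.36 and -0.11, and of 22 such genes 5 were called lower in Fcmr+/+ and 1 higher in Fcmr-/-, to be read beside the same shares of all genes. The 1 higher gene reached 50 CPM in mt-high TMPs only, and 2 of the 5 lower genes in mt-low TMPs only. Weighted to depth these medians were -0.50 and -0.38, and weighted over clusters -0.20 and 0.11, so the sign in Fcmr-/- turned. Gapdh, a glycolytic enzyme, was at 2086 against 3256 CPM and 2389 against 3043.

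Markers of melanoma cells were present at a low level. The 12 melanoma cell markers summed to 271 CPM (249 to 296) in mt-high against 91.5 in mt-low TMPs of Fcmr+/+ and to 212 (190.0 to 235) against 125 in Fcmr-/-. Pmel, a melanosome protein, was at 50.1 against 15.01 CPM and 54.0 against 25.6, so that it reached 50 CPM in mt-high TMPs only and could be called in 1 direction alone. Dct, a pigment enzyme, was the most abundant marker in Fcmr+/+, at 74.1 against 14.2. A single Fcmr+/+ cell held 164 melanoma UMIs, and 88 of the 142 Dct UMIs were in 1 cell. Cells with 5 or more melanoma UMIs made up 8.72% of mt-high and 8.90% of mt-low TMPs in Fcmr+/+, and 9.94% and 7.70% in Fcmr-/-. Without all such cells, 137 genes were higher and 12 lower in both libraries, in place of 98 and 9. 1 of the 12 markers, Gpr143, was at 0 UMIs in Fcmr-/- mt-high TMPs, and none was at 0 in Fcmr+/+.

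Markers of lymphocytes, stromal cells and granulocytes were low in mt-high TMPs. The 8 T and NK cell markers summed to 0.522 against 1.17 CPM in mt-low TMPs of Fcmr+/+ (7 at 0) and to 0 against 16.6 in Fcmr-/- (8 at 0), and the 8 mast cell and basophil markers were all at 0 in mt-high TMPs of both. 0 UMIs allow up to 1.57 CPM in Fcmr+/+ and 1.84 in Fcmr-/-, taking 3 UMIs over the group as the limit. B cell markers summed to 23.5 against 13.2 CPM and 16.6 against 11.04, with Cd79b the most abundant at 14.6 and 14.7, and Cd79a, Ms4a1 and Pax5 at 0 in Fcmr-/-. Fibroblast markers summed to 2.61 against 1.73 CPM and 4.91 against 1.59, with Lum and Pdgfra at 0 in mt-high TMPs of both. Endothelial markers summed to 10.96 against 7.47 CPM and 8.59 against 13.5, with Cldn5, Plvap, Emcn and Tie1 at 0. Neutrophil markers summed to 32.4 against 33.7 CPM and 47.9 against 51.2, with S100a9, Ly6g and Camp at 0. The most abundant of these was Csf3r, at 22.4 against 16.4 CPM and 38.1 against 25.1, with UMIs in 37 and 44 mt-high TMPs. Dendritic cell markers summed to 56.9 against 39.9 CPM and 41.1 against 47.8, with Flt3 and Zbtb46 at 0. Wdfy4, the most abundant of them, was at 50.1 against 30.4 CPM in Fcmr+/+ and at 37.4 against 32.4 in Fcmr-/-.

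Monocyte markers summed to 1018 against 999 CPM in Fcmr+/+ and 1074 against 1045 in Fcmr-/-. F13a1, a transglutaminase, was at 757 against 607 CPM and 589 against 444. Ccr2, the chemokine receptor of recruited monocytes, was at 107 against 139 CPM and 85.9 against 142, and Ly6c2 at 12.01 against 33.1 and 66.3 against 113. The median log2 ratio was -0.37 over the 3 markers at 50 CPM in Fcmr+/+, of which 0 were called, and -0.59 over the 5 in Fcmr-/-, of which Ccr2, Ly6c2 and Chil3 were called lower (Chil3 reached 50 CPM in mt-low TMPs only), beside 1.42% and 1.11% of all genes. Weighted to depth the medians were -1.01 and -1.10, and weighted over clusters -0.12 and -0.38. Platelet markers, led by Ppbp, summed to 13.6 against 57.8 CPM and 4.91 against 37.3, and erythroid markers to 4.70 against 28.6 and 6.14 against 16.5.

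mt-high TMPs occurred in every cluster but not at one rate. Clustering of all cells without mitochondrial genes gave 10 clusters, which are named by number and leading genes, and the leading genes are no results here. In cluster 5 (led by Tfrc, Cnrip1, Gas6 and Ednrb) 79 of 1478 cells were mt-high, or 5.35% (4.25 to 6.62), with 5.49% in Fcmr+/+ and 4.89% in Fcmr-/-. In cluster 4 (Cenpf, Nusap1 and other cell cycle genes) the share was 3.45% (2.58 to 4.51) and in cluster 1 (Iigp1, Serpina3g and Cxcl9), of which 2285 of 2371 cells were Fcmr-/-, it was 3.21% (2.53 to 3.996). Over both libraries it was 0.611% (0.305 to 1.09) in cluster 3 (Cxcl3, Ppbp and Areg) and 0.605% (0.165 to 1.54) in cluster 10 (Mfge8, Plpp3 and Npy). In cluster 8 (Rsad2, Cmpk2 and Ifit3) it was 0.832% (0.360 to 1.63). The libraries differed, with 1.80% in Fcmr+/+ and 0.364% in Fcmr-/- for cluster 10, and 1.67% and 0.553% for cluster 8. For cluster 3 the shares were 0.823% and 0.421%. In Fcmr+/+ the lowest share was in cluster 6, at 0.649%, beside 1.43% in Fcmr-/-. The intervals of clusters 5 and 3 did not overlap in either library. Cluster 5 held 36.0% of the mt-high TMPs and 17.8% of all cells in Fcmr+/+, and 9.39% and 4.35% in Fcmr-/-. Cluster 1 held 40.9% of the mt-high TMPs and 28.6% of all cells in Fcmr-/-, and 1.16% and 1.35% in Fcmr+/+. The clusters also differed in depth. Clusters 4 and 5 had medians of 24872 and 21167.5 UMIs on other genes per cell, clusters 6 and 8, with mt-high shares of 1.08% and 0.832%, had 8634 and 8579, and clusters 3 and 10 had 13050 and 12372. Cluster 2 (Ccl17, Il1r2 and Ifitm1) had a mt-high share of 2.25% at a median of 12313.

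**Figure D5:**
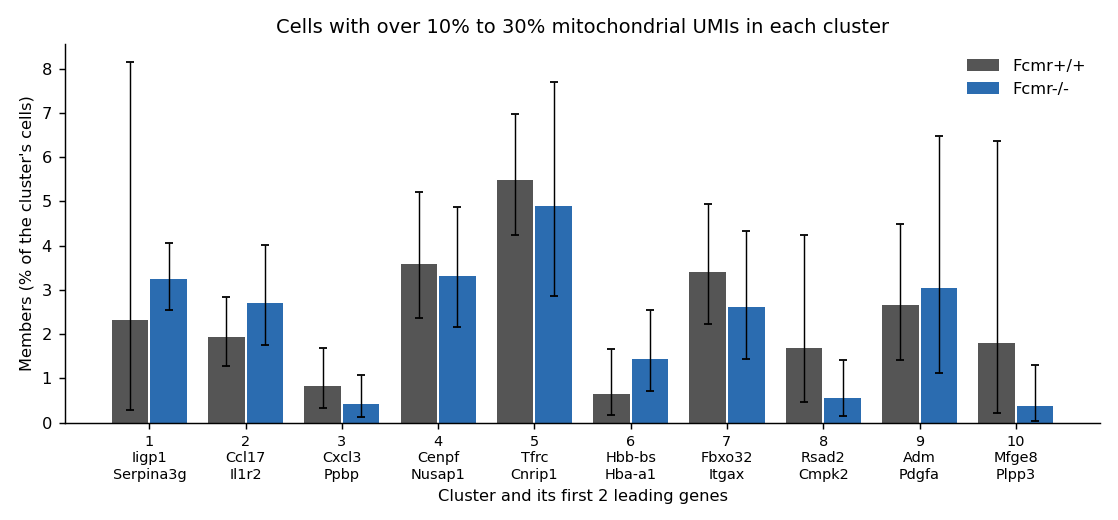
Share of cells that were mt-high (%, y axis) in each of 10 clusters (x axis, with the first 2 leading genes), by library, with 95% exact Clopper-Pearson intervals. Cluster 5 has the highest share, at 5.49% and 4.89%, and cluster 3 is at 0.823% and 0.421%.

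Some of the leading differences also appeared inside single clusters and others did not. Stab1 in mt-high against mt-low TMPs of cluster 5 was at 1234 against 626 CPM in Fcmr+/+ (62 mt-high TMPs) and 1423 against 859 in Fcmr-/- (17 mt-high TMPs). In cluster 4 it was at 1083 against 494 CPM and 955 against 532, in cluster 2 at 495 against 239.6 and 491 against 249.7, and in cluster 1 of Fcmr-/- at 685 against 369.9. Malat1 in cluster 5 was at 13792 against 7258 CPM in Fcmr+/+ and 18407 against 8688 in Fcmr-/-, log2 ratios of 0.93 and 1.08. Its ratios were smaller in cluster 4, at 0.64 in each library, in cluster 2, at 0.52 and 0.33, and in cluster 1 of Fcmr-/-, at 0.53. S100a4 had log2 ratios below 0 in clusters 2, 4 and 5 of both libraries and in cluster 1 of Fcmr-/-, from -0.99 to -0.32. Il1b had log2 ratios of -0.01 in cluster 5 of Fcmr+/+ and 0.77 in cluster 5 of Fcmr-/-, beside -1.04 and -1.35 in cluster 2. Lyve1 in cluster 2 was at 382 against 59.0 CPM in Fcmr+/+ and 787 against 92.9 in Fcmr-/-, where cluster 2 held 202 of the 224 Lyve1 UMIs of mt-high TMPs. In cluster 4 of Fcmr-/- it was at 71.4 against 15.7 CPM, in cluster 5 of Fcmr+/+ at 40.9 against 45.8, and in cluster 5 of Fcmr-/- at 0 UMIs against 52.4 CPM. Fcgrt in cluster 2 was at 401 against 131 CPM and 561 against 172, in cluster 4 of Fcmr-/- at 174 against 86.5, and in cluster 5 of Fcmr-/- at 70.7 against 118 from 9 UMIs. Ccl8 in cluster 2 was at 1798 against 466 CPM and 1403 against 676, in cluster 1 of Fcmr-/- at 3646 against 2530, in cluster 4 of Fcmr+/+ at 611 against 612, and in cluster 5 of Fcmr-/- at 935 against 1483. Lyve1, Fcgrt and Ccl8 thus had log2 ratios above 0 in cluster 2 of both libraries and below 0 in cluster 5 of Fcmr-/-. For Fcgrt there the interval spanned 0 (-1.87 to 0.20). In cluster 5 of Fcmr+/+ Ccl8 was at 1798 against 1136 CPM and Fcgrt at 214 against 144, log2 ratios of 0.66 and 0.57. Slpi in cluster 4 of Fcmr+/+ was at 31.1 against 11.4 CPM from 11 UMIs, and in cluster 2 of that library at 29.1 against 74.4 from 9. With mt-low TMPs weighted to the clusters of the mt-high TMPs, 55 genes were higher and 6 lower in both libraries, and Stab1 kept log2 ratios of 0.97 and 0.80. Some genes named above as called in both libraries fell short of 1.5-fold under this weighting. In both libraries these were C1qa, at 0.41 and 0.49, Sepp1, at 0.41 and 0.52, Cd81, at 0.57 and 0.48, and Prdx6, at -0.51 and -0.34. In Fcmr+/+ alone they included Folr2 at 0.49, Vcam1 at 0.50, Gbp7 at 0.54, Mcm2 at 0.40, Man2b1 at 0.57, Cxcl3 at -0.48, Fn1 at -0.36 and Rgcc at -0.50. In Fcmr-/- alone they included Ccl8 at 0.57, Mrc1 at 0.53 and Slpi at -0.25.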

How the data were processed

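The authors aligned and counted reads with Cell Ranger on GRCm38. The matrices they deposited hold raw UMI counts of 27998 genes in 14409 barcodes, before any normalization. Their limits on genes and mitochondrial share left 14351 cells, the number their methods state. The counts were used as deposited, and no doublets were called beyond the limit of 7000 genes. UMIs were summed over cells within a library, and CPM (per 1e+06 non-mitochondrial UMIs) had a pseudocount of 1. Depth weighting gave mt-low TMPs the mt-high distribution over 8 ranges of other UMIs per cell. Clusters were made with Seurat 5.3.0 in R 4.3.3 (scale 10000, 1335 variable genes, 10 principal components, resolution 0.8). Other steps used Python 3.11.15, numpy 2.4.6, scipy 1.17.1 and pandas 2.3.3, and the code was tested on simulated data. Intervals cover counting error only.

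The cell group, the 26 pathway lists and the 12 marker lists were chosen with earlier results of these data known. Genes named by rule were the 13 mitochondrial ones, Mertk, Fcgr1, Itgam, Adgre1 and Fcmr, the 12 highest and 12 lowest called in both libraries by the ratio nearer 0 (only 9 were lower), and the most abundant, most raised and most lowered of each list. Others, such as Bnip3, C1qa, Cxcl9, Hspa1a, Sepp1, Spp1 and the markers at 0, were chosen after their values were seen. With 1 library per genotype no p-value is given. The kit is labelled v4 in the submitters' notes. 4 genes that the rule or the lists would name are not reported here, though counts and medians include them.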

Additional observations from a re-analysis of the deposited data

Results flagged for a closer look

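The median log2 ratio of the 6 MHC class II genes in mt-high over mt-low TMPs was -0.63 in Fcmr+/+ and 0.17 in Fcmr-/-. All 6 were below 0 in Fcmr+/+, where 4 were called lower, and all 6 above 0 in Fcmr-/-, where 0 were called. Of all genes 1.42% and 1.11% were called lower and 9.49% and 5.95% higher. The difference between the genotypes was not tested, since each had 1 library. Cluster 1, which held 40.9% of the Fcmr-/- and 1.16% of the Fcmr+/+ mt-high TMPs, moves with this result, and weighted over clusters the medians were -0.45 and -0.09. Its part in the result was not tested further. Weighted to depth the medians were -1.04 and 0.11. Levels near those of mt-high TMPs also occurred below the 10% limit. The summed MHC class II level at 8 to 10% was 3897 CPM in Fcmr+/+ and 8416 in Fcmr-/-. At 10 to 15% it was 3209 and 8393 CPM, and at 15 to 30% 3932 and 8536. Among mt-low TMPs at 2 to 4% it was 7264 and 7771 CPM.

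Cells over 30% mitochondrial UMIs, 7 in Fcmr+/+ and 3 in Fcmr-/-, were outside the rule and entered only the alternative with no upper limit on the share. They showed Malat1 and Stab1 above the level of mt-low TMPs. Malat1 was at 56007 CPM (53536 to 58562) in the Fcmr+/+ cells and at 24124 (21731 to 26708) in the Fcmr-/- cells, against 10575 and 12958 in mt-low TMPs. Stab1 was at 1769 CPM (1353 to 2273) and at 1365.5 (845 to 2087), against 361 and 353. The 7 and 3 cells held 34478 and 15379 non-mitochondrial UMIs in all, so each value rests on few UMIs, 61 and 21 for Stab1.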

How the results depend on the processing

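A fit over the 2 libraries as pairs of mt-high and mt-low TMPs was not run. Depth limits the genes near 50 CPM, where mt-high TMPs held about 100 UMIs or fewer, and counts of genes depend on the limits. The counts of genes higher and lower in both libraries (98 and 9) were within 1.5 times of these without shared barcodes, without melanoma-marked cells, with pseudocounts of 0.1 and 5, an upper limit of 20% or none, and other limits on genes. The mt-high share with a lower limit of 8% was 6.16% in Fcmr+/+ and 5.52% in Fcmr-/-, with medians of 12058.5 and 9607 other UMIs, and with 15% it was 0.739% and 0.462%, with 6183 and 5733. Genes higher and lower numbered 27 and 11 at 8%, 533 and 146 at 15%, 208 and 31 at 20 CPM, 37 and 7 at 100 CPM, 539 and 153 with no CPM limit, and 4 and 2 at 2-fold. They numbered 25 and 35 with CPM of all UMIs, 75 and 20 without ribosomal protein UMIs, 41 and 23 scaled by the median ratio, 214 and 29 with the mean of per-cell CPM, and 196 and 29 thinned to 4000 UMIs. By reference they numbered 142 and 41 weighted by depth, 55 and 6 weighted by cluster, and 186 and 25 against cells at 5% or less. In alternatives chosen after seeing the data they numbered 19 and 0 against cells over 5% to 10%, 35 and 6 weighted by cluster and depth together, and 69 and 7 with 50 CPM in the mean of both groups. Of the values of named genes, 4321 were within their counting intervals, 1027 moved beyond them, and 2 called values reversed: Lyve1 in Fcmr-/- was -0.35 with a lower limit of 15%, and Slpi in Fcmr-/- was 0.15 against cells over 5% to 10%. The cause was not tested. Of the list medians, 1013 moved by 0.1 or less and 287 by more. Both tallies include settings that could not move a ratio, so they do not measure stability alone. Among these, 2-fold and at least 1000 genes each gave 213 of the 4321 and 52 of the 1013. The highest share of any cluster was 4.53% to 6.11% at resolutions 0.4 and 1.2 and with 20 principal components.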
